A study of Arabidopsis thaliana with 18 samples.

Results

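The genes that make sinapate and turn it into its esters were followed through whole rosettes of Arabidopsis thaliana. They were taken by gene ID: 9 of the 33602 gene IDs in the count table, namely ALDH2C4, also called REF1 (AT3G24503), the glucosyltransferase genes UGT84A1 (AT4G15480), UGT84A2 (AT3G21560) and UGT84A3 (AT4G15490), and the acyltransferase genes SNG1 (AT2G22990), SNG2 (AT5G09640), SCPL9 (AT2G23010), SCPL10 (AT2G23000) and SCPL13 (AT2G22980). The study had 18 RNA-seq libraries from 6 genotypes of ecotype Columbia-0, with 3 libraries each, and no group received a treatment. Besides wild type there were the single mutants ref2-1 and ref5-1, the double mutant med5a-1 med5b-1, called med5 from here on, and the triple mutants that combine med5 with ref2-1 or with ref5-1, called ref2-1 med5 and ref5-1 med5. For every library 5 rosettes were pooled at an age of 18 days, after growth under 16 h of light and 8 h of darkness. The ref5-1 allele is a missense change in CYP83B1 and ref2-1 a loss-of-function allele of CYP83A1, the P450 enzymes of indole and aliphatic glucosinolate synthesis. The med5 plants carry mutant alleles of both genes for MED5, a subunit of Mediator, the bridge between transcription factors and the polymerase. The same wild type and med5 libraries served as controls in several comparisons.

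Sinapate is a phenolic acid at the end of a branch of the phenylpropanoid pathway. ALDH2C4 oxidises sinapaldehyde to sinapate, UGT84A enzymes join sinapate to glucose, and the acyltransferases pass the sinapoyl group from sinapoylglucose to other acceptors. In leaves SNG1 transfers it to malate, and the sinapoylmalate stored in the epidermis absorbs ultraviolet light and gives leaves their blue fluorescence. Some mutants in these steps were found by changes in that fluorescence, and the ref mutants were named for it.

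SCPL13, SNG1, SCPL10 and SCPL9 lie in this order on the plus strand of chromosome 2 within 23.9 kb, and UGT84A1 and UGT84A3 are neighbours on chromosome 4. The sequences below are the 250 bases before the annotated start of 3 members, given 5′ to 3′ on the strand of the gene, from RefSeq build TAIR10.1. UGT84A2 and ALDH2C4 were among the members called higher than wild type in a mutant. SCPL10 was the acyltransferase gene called lower than wild type in ref2-1 med5. The authors' counts name build TAIR10 and were joined to RefSeq by gene ID alone. Capitals mark matches to the searched motifs on either strand.
UGT84A2, chr3:7595430-7595679, plus strand: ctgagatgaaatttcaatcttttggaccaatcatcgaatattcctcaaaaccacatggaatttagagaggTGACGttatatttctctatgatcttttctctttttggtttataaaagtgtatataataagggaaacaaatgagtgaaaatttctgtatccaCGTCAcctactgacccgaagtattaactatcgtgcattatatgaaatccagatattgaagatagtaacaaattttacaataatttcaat
ALDH2C4, chr3:8923297-8923546, minus strand: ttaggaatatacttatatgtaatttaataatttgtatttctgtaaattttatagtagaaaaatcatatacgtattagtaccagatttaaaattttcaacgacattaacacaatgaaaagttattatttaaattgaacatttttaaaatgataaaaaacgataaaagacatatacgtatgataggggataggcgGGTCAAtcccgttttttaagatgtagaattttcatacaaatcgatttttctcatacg
SCPL10, chr2:9791916-9792165, plus strand: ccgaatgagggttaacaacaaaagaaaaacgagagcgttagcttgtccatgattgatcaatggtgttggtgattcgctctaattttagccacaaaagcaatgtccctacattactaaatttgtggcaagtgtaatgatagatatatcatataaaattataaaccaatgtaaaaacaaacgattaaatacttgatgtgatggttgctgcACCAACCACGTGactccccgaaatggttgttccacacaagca
The motifs searched on both strands were the AC-I element ACCTACC, the AC-II element ACCAACC and the AC-III element ACCTAAC of MYB factors, the G-box CACGTG, the W-box of WRKY factors as TTGACC or in the form TTGACT, and the core TGACG of TGA factor sites. UGT84A2 held TGACG at positions -180 to -176 and, on the other strand, at -89 to -85 from the start, and 18.6% of 27443 protein-coding promoters of this length held it. SCPL10 held ACCAACC, present in 2.69% of promoters, overlapping by 1 base with CACGTG, present in 6.49%, and its window also holds part of the noncoding RNA gene AT2G07855. ALDH2C4 held TTGACC on the strand opposite the gene, as did 12.2% of promoters. None of these 3 windows held the AC-I or AC-III element or the TTGACT form of the W-box. UGT84A3 was also called higher than wild type in mutants, and its window, not shown, held none of the searched motifs. The windows of SNG1, SCPL9 and SCPL13 held none of them either. That of UGT84A1, called against wild type in no mutant, held TGACG at -89 to -85, -43 to -39 and, on the other strand, -206 to -202. That of SNG2 held ACCAACC on the strand opposite the gene, and TTGACT at -236 to -231 and -188 to -183. So TGACG was not particular to UGT84A2 among the members, nor ACCAACC to SCPL10.

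Gene counts per library ran from 19578169 to 33193849. In ref5-1 med5 replicate 1 25.3% of reads aligned to several places, against 3.71% to 8.91% elsewhere, so the members' changes that rest on it are also given without it. CYP83A1 was at 117 to 129 CPM (a gene's counts relative to the library's summed gene counts, scaled by TMM) in the ref2-1 libraries and 344.7 to 462 CPM in wild type, and MED5B was at 6.31 to 8.47 CPM in the 9 med5 libraries and 23.5 to 30.7 CPM in the others. MED5A was at 23.4 to 40.8 CPM in the med5 libraries, 45.4 to 52.2 CPM in wild type and 46.9 to 51.6 CPM in ref5-1. In ref2-1 it was at 34.8 to 41.8 CPM and called lower than in wild type (-0.34 ± 0.091, adjusted p = 0.0108), so its level did not separate the libraries with and without med5 alleles. The ref5-1 allele changes the protein, so the CYP83B1 level checks nothing. All 4 leaf mesophyll markers were high (summed 36021 to 49654 CPM), as the tissue label says. The seed markers summed to 0 to 0.408 CPM over 6 genes, and 2 to 4 of them had no read in a genotype.

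**Figure D1:**
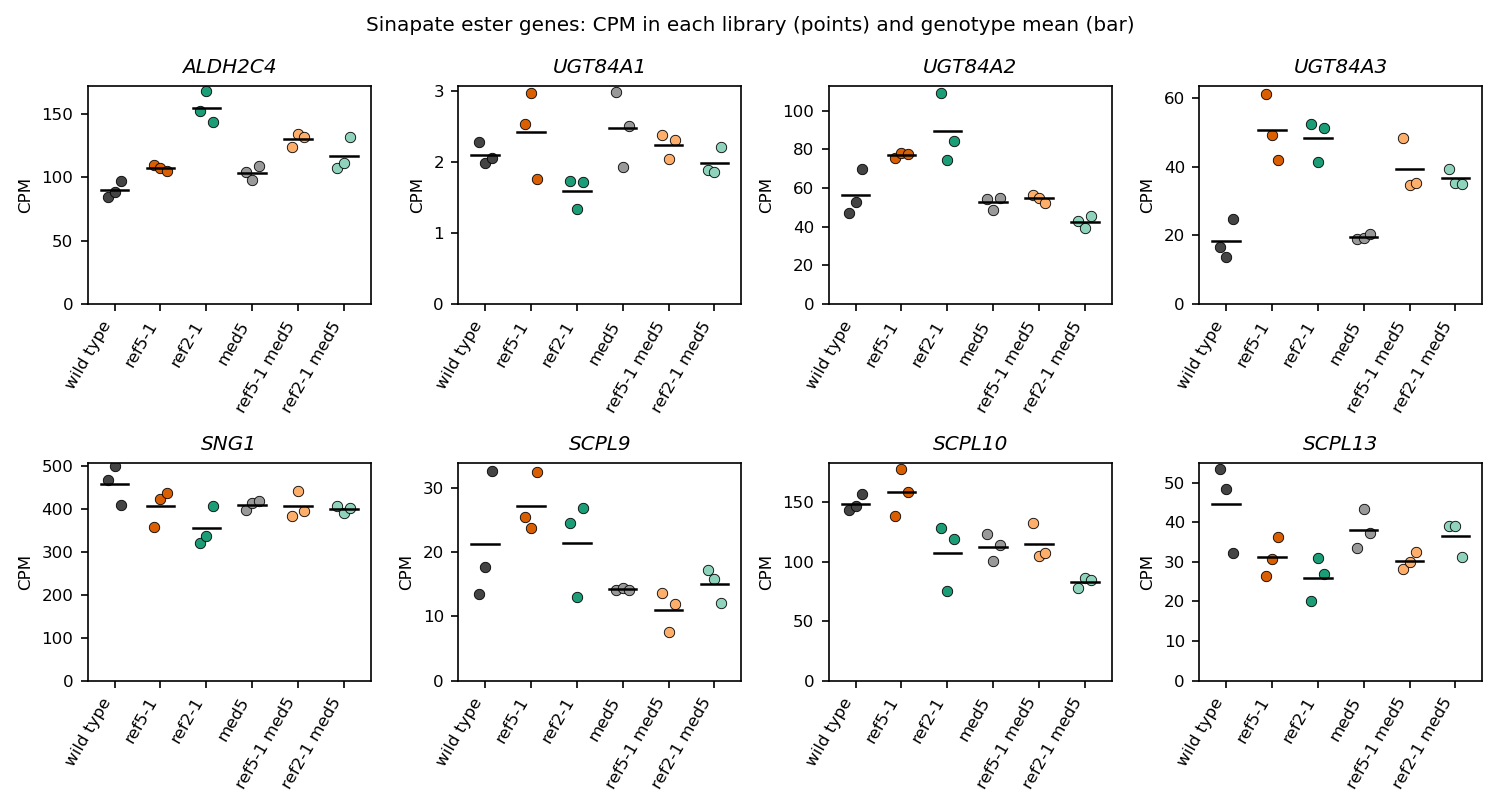
CPM of the 8 tested sinapate ester genes in each library (points) and the genotype mean (bar), on linear axes that start at 0, with med5 for med5a-1 med5b-1. UGT84A3 was higher in every ref5-1 and ref2-1 library, with or without med5, than in any wild type or med5 library, whereas UGT84A2 was high in ref5-1 and ref2-1 alone.

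In wild type rosettes SNG1 was the member with the most transcript. Per kb of exon it was at 219 ± 22.0 CPM per kb (SD, n = 3), followed by SCPL10 at 70.9 ± 3.34, ALDH2C4 at 46.2 ± 3.26, UGT84A2 at 29.4 ± 6.23, SCPL13 at 18.4 ± 4.54, SCPL9 at 13.4 ± 6.35, UGT84A3 at 8.94 ± 2.77 and UGT84A1 at 1.23 ± 0.0875 CPM per kb. Library ranges of SCPL13 and SCPL9 overlapped, as did those of SCPL9 and UGT84A3, and the other neighbours in this order were apart. SNG2, the choline acyltransferase of seeds, had 0 reads in 16 libraries, 1 read in ref2-1 replicate 3 and 1 in med5 replicate 3. A count of 0 allows up to 0.0942 to 0.158 CPM at these depths, counting error alone. SNG2 did not pass the filter on low counts, so 8 of the 9 members were tested among 19897 genes. At 50-base windows, 4.71% of SCPL9 and 3.10% of SCPL10 transcript sequence was shared with other tested relatives, mostly with each other, 0.439% of SNG1, and none of the other members. Reads no longer than such a window cannot be assigned to 1 gene there, and the read length is not given in the sources used here.

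ALDH2C4, the first step, was at 84.3, 88.6 and 96.8 CPM in wild type and at 152, 168 and 143 CPM in ref2-1. All ref2-1 libraries lay above all wild type libraries. ALDH2C4 rose 1.72-fold in ref2-1 (log2 fold change 0.78 ± 0.084 SE, edgeR quasi-likelihood adjusted p = 7.96e-06), and the call was kept when any 1 library of the comparison was left out. In ref5-1 it was at 109, 107 and 104 CPM, above every wild type library, with a log2 fold change of 0.25 ± 0.084 that did not pass the test (adjusted p = 0.0744). DESeq2 called this difference (adjusted p = 0.0309). ALDH2C4 was higher in ref2-1 than in ref5-1 by 0.53 on the log2 scale (ref5-1 minus ref2-1, -0.53 ± 0.084, adjusted p = 0.000264). The med5 alleles went with opposite differences in the mutants. In ref2-1 med5 it was at 107, 111 and 132 CPM, lower than in ref2-1 (-0.40 ± 0.084, adjusted p = 0.00583), and in ref5-1 med5 at 124, 134 and 132 CPM, higher than in ref5-1 (0.28 ± 0.084, adjusted p = 0.0399). The latter call remained without ref5-1 med5 replicate 1 (0.31, adjusted p = 0.0409). It was lost without the filter on low counts (adjusted p = 0.0578), in a fit to the 6 compared libraries (0.102) and when any other single library of that comparison was left out, with adjusted p between 0.0689 (without ref5-1 replicate 1) and 0.139 (without ref5-1 med5 replicate 2).

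ALDH2C4 overlaps the stress-response gene MBF1C (AT3G24500) by 124 bases on the other strand, and the strand setting of the counting is not given in the sources used here. MBF1C was at 8.72 to 10.2 CPM in wild type and 5.32 to 7.02 CPM in ref2-1, where it fell (-0.60 ± 0.10, adjusted p = 0.000473), against the direction of ALDH2C4. From ref5-1 to ref5-1 med5, where ALDH2C4 rose, MBF1C rose too (0.42 ± 0.10, adjusted p = 0.016, and 0.0256 without ref5-1 med5 replicate 1). Its mean level there went from 7.49 to 9.98 CPM, and that of ALDH2C4 from 107 to 129.8 CPM. From ref2-1 to ref2-1 med5, where ALDH2C4 fell, MBF1C rose (0.48 ± 0.11, adjusted p = 0.0081). The noncoding RNA gene AT3G04695, which overlaps ALDH2C4 by 253 bases, was not analysed here. Both triple mutants stayed above wild type in ALDH2C4, ref5-1 med5 by 0.53 ± 0.084 (adjusted p = 0.000273, and 0.56 with adjusted p = 0.0005 without its replicate 1) and ref2-1 med5 by 0.37 ± 0.084 (adjusted p = 0.00434). In order of mean level the genotypes ran ref2-1 (154 CPM), ref5-1 med5 (129.8 CPM), ref2-1 med5 (117 CPM), ref5-1 (107 CPM), med5 (103 CPM) and wild type (89.9 CPM). Library ranges of neighbours overlapped for ref5-1 med5 with ref2-1 med5, for ref2-1 med5 with ref5-1, and for ref5-1 with med5.

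Of the 3 glucosyltransferase genes, UGT84A3 had the largest change. It was at 16.5, 13.8 and 24.7 CPM in wild type, against 61.2, 49.3 and 41.9 CPM in ref5-1 and 52.6, 41.5 and 51.2 CPM in ref2-1. No mutant library overlapped wild type. UGT84A3 rose 2.77-fold in ref5-1 (1.47 ± 0.19, adjusted p = 0.000217) and 2.64-fold in ref2-1 (1.40 ± 0.19, adjusted p = 0.000116), and both calls held when any 1 library was left out. The direct difference between ref5-1 and ref2-1 was 0.07 ± 0.18 (95% interval -0.32 to 0.46, adjusted p = 0.832).

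UGT84A3 also rose with ref5-1 and ref2-1 in the med5 background. Levels were 48.4, 34.7 and 35.4 CPM in ref5-1 med5 and 39.5, 35.3 and 35.03 CPM in ref2-1 med5, against 18.97, 19.3 and 20.6 CPM in med5. Every triple mutant library was above every med5 library. UGT84A3 rose 2.01-fold from med5 to ref5-1 med5 (1.01 ± 0.19, adjusted p = 0.00322, and 0.84 with adjusted p = 0.0115 without ref5-1 med5 replicate 1) and 1.87-fold from med5 to ref2-1 med5 (0.90 ± 0.19, adjusted p = 0.00651). Against wild type it was higher by 1.10 ± 0.19 in ref5-1 med5 (adjusted p = 0.000988, 0.93 with adjusted p = 0.00309 without replicate 1, and 0.0508 in a fit to the 6 compared libraries) and by 1.00 ± 0.19 in ref2-1 med5 (adjusted p = 0.00203). Its interactions with med5 were -0.46 ± 0.27 for ref5-1 (adjusted p = 0.672) and -0.50 ± 0.27 for ref2-1 (adjusted p = 0.378). Their 95% intervals, -1.03 to 0.11 and -1.07 to 0.07, include a change of 0 and a loss of more than 1 on the log2 scale. Without ref5-1 med5 replicate 1 the ref5-1 interaction was -0.63 ± 0.26 (adjusted p = 0.446), with a 95% interval of -1.19 to -0.08. From ref5-1 to ref5-1 med5 UGT84A3 was at -0.37 ± 0.18 (adjusted p = 0.22), and at -0.53 ± 0.19 (adjusted p = 0.0873) without that library. From ref2-1 to ref2-1 med5 it was at -0.40 ± 0.19 (adjusted p = 0.191, and 0.0394 in a fit to the 6 compared libraries).

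UGT84A2, whose mutant bright trichomes 1 is named for its fluorescent trichomes, rose in the mutants with intact MED5. It was at 47.0, 52.8 and 70.1 CPM in wild type, against 75.5, 78.0 and 77.4 CPM in ref5-1 and 109, 74.4 and 84.4 CPM in ref2-1. The wild type libraries were all below the mutant ones, replicate 3 being the nearest. UGT84A2 rose 1.58-fold in ref2-1 (0.66 ± 0.13, adjusted p = 0.00154, kept when any 1 library was left out, but 0.0708 in a fit to the 6 compared libraries). In ref5-1 it rose 1.36-fold (0.44 ± 0.13, adjusted p = 0.0449). That call was lost without the filter on low counts (adjusted p = 0.0505), in a fit to the 6 compared libraries (0.0964), and when replicate 1 (0.209) or 2 (0.183) of wild type or any ref5-1 library was left out (0.102, 0.102 and 0.0868).

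In the med5 background UGT84A2 was not called in either glucosinolate mutant (0.06 ± 0.13 for ref5-1 med5 and -0.31 ± 0.13 for ref2-1 med5, adjusted p = 0.845 and 0.124). The first was 0.03 without ref5-1 med5 replicate 1 (adjusted p = 0.932), and the second passed in a fit to the 6 compared libraries (0.0224). It was at 54.4, 48.6 and 54.8 CPM in med5, 56.5, 54.95 and 52.5 CPM in ref5-1 med5 and 42.9, 39.1 and 45.4 CPM in ref2-1 med5. All triple mutant libraries were below those of the corresponding single mutant. From ref2-1 to ref2-1 med5 UGT84A2 fell 2.103-fold (-1.07 ± 0.13, adjusted p = 0.000102), a call that held when any 1 library was left out, and from ref5-1 to ref5-1 med5 1.41-fold (-0.49 ± 0.13, adjusted p = 0.0239). The latter was kept without ref5-1 med5 replicate 1 (adjusted p = 0.0386). It was lost when any other single library of the comparison was left out, with adjusted p between 0.0539 (without ref5-1 replicate 3) and 0.0832 (without ref5-1 med5 replicate 3). In ref2-1 med5 UGT84A2 was below wild type (-0.42 ± 0.13, adjusted p = 0.0347). This difference did not pass in a fit to the 6 compared libraries (adjusted p = 0.0898) or without wild type replicate 3 (0.197) or ref2-1 med5 replicate 1 (0.0808) or 2 (0.117).

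UGT84A1, which also acts on hydroxycinnamates, was rare, at 1.99 to 2.27 CPM in wild type and 1.33 to 2.98 CPM over all libraries. It did not pass against wild type in any mutant. It was higher in ref5-1 (1.77 to 2.97 CPM) than in ref2-1 (1.33 to 1.73 CPM) by 0.61 ± 0.21 on the log2 scale (adjusted p = 0.0444). The call was lost when any 1 of the 6 libraries other than ref5-1 replicate 3 was left out, with adjusted p of 0.0613 to 0.198. It was also lost in DESeq2 (0.0604), without the filter on low counts (0.0532) and in a fit to the 6 compared libraries (0.131). The gene AT4G15475, which overlaps it by 69 bases on the other strand, was at 20.8 to 26.0 CPM in all libraries.

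**Figure D2:**
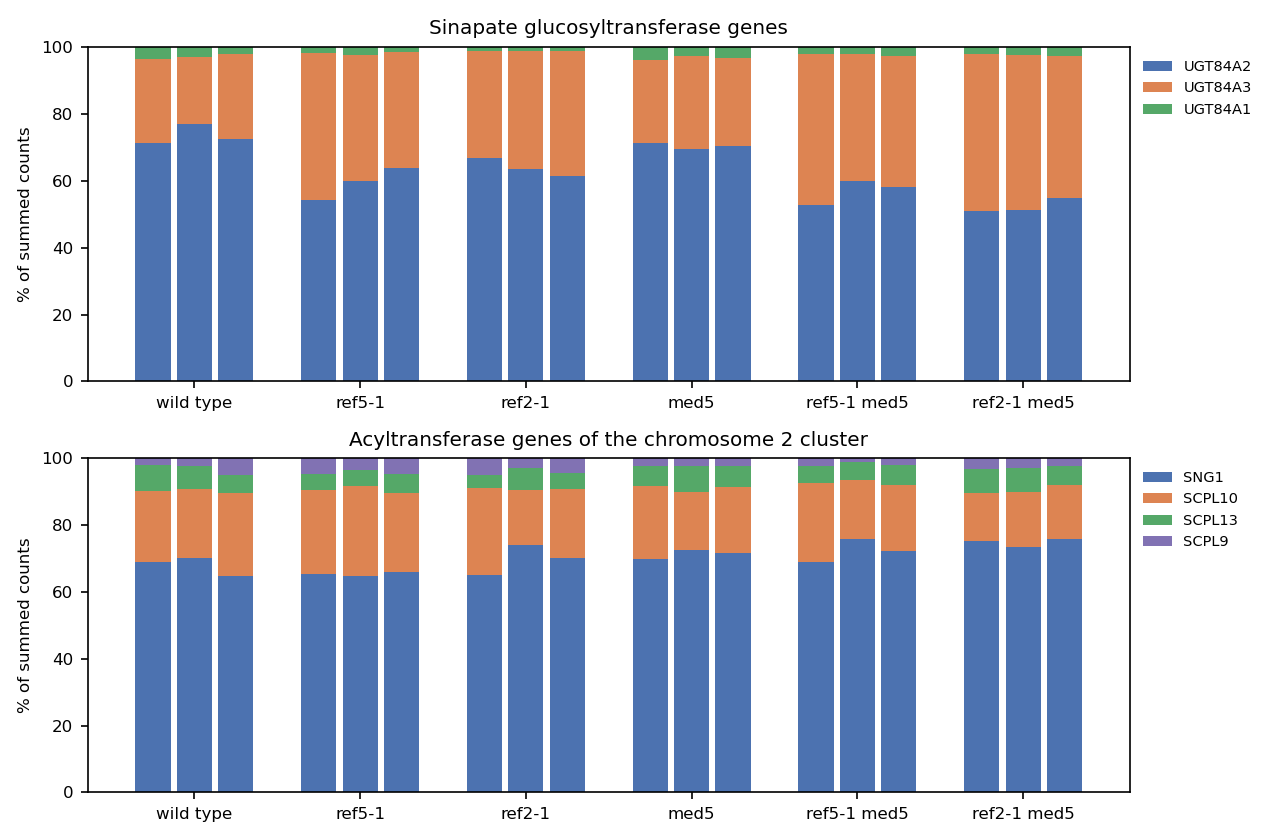
Share of summed counts (percent) held by each gene among UGT84A1, UGT84A2 and UGT84A3 (upper) and among SNG1, SCPL10, SCPL13 and SCPL9 (lower), 1 bar per library. UGT84A3 held 20.1% to 25.5% in wild type and 32.1% to 46.9% in the 4 genotypes with ref5-1 or ref2-1, while SNG1 held 64.6% to 75.8% of the acyltransferase counts throughout.

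Within the glucosyltransferase counts, UGT84A3 held 23.6 ± 3.03% in wild type and 26.3 ± 1.40% in med5 (SD, n = 3). It held 38.8 ± 4.75% in ref5-1, 34.95 ± 2.61% in ref2-1, 40.7 ± 3.86% in ref5-1 med5 and 45.2 ± 2.44% in ref2-1 med5. In ref5-1 med5 replicates 2 and 3 held 37.8% and 39.3%, and replicate 1 held 45.1%. Libraries of the latter 4 genotypes did not overlap those of wild type or med5, and UGT84A2 held most of the remainder. These shares are descriptions and were given no test.

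Among the acyltransferase genes, SNG1 fell in ref2-1. It was at 466, 499 and 408 CPM in wild type and 321, 338 and 407 CPM in ref2-1, so that ref2-1 replicate 3 lay just below the lowest wild type library. The decrease was 1.29-fold (-0.37 ± 0.098, adjusted p = 0.0101). It was not called without wild type replicate 2 (adjusted p = 0.0623) or ref2-1 replicate 1 (0.0527). In the other genotypes SNG1 was at 358 to 442 CPM, and the differences from wild type were -0.17 ± 0.098 in ref5-1, -0.16 ± 0.098 in med5, -0.17 ± 0.098 in ref5-1 med5 and -0.20 ± 0.098 in ref2-1 med5, none of which passed (adjusted p = 0.312, 0.553, 0.239 and 0.17). Without ref5-1 med5 replicate 1 the third was -0.13 (adjusted p = 0.456). The 95% interval for ref5-1, -0.38 to 0.03, leaves room for a decrease as large as that in ref2-1.

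SCPL13, which in biochemical work on this gene cluster contributes to disinapoylated compounds, was at 53.5, 48.4 and 32.3 CPM in wild type and 20.1, 31.0 and 27.0 CPM in ref2-1, without overlap. It fell 1.71-fold in ref2-1 (-0.78 ± 0.19, adjusted p = 0.00623), a call that held when any 1 library was left out and was lost in a fit to the 6 compared libraries (adjusted p = 0.073). In ref5-1 it was at 26.5, 30.7 and 36.4 CPM, overlapping wild type, and did not pass (-0.52 ± 0.18, adjusted p = 0.0995, and 0.0447 in DESeq2). Without wild type replicate 3, the lowest of its group, the ref5-1 difference was -0.71 (adjusted p = 0.0121). In ref5-1 med5 it was lower than in wild type (-0.56 ± 0.18, adjusted p = 0.0453). That call was lost when any 1 library of the comparison other than wild type replicate 3 was left out, with adjusted p of 0.114 without ref5-1 med5 replicate 1 and between 0.0669 and 0.178 over the 5 libraries. It was also lost without the filter on low counts (0.061) and in a fit to the 6 compared libraries (0.104).

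SCPL10, the enzyme that sinapoylates anthocyanins, was at 143, 147 and 157 CPM in wild type, against 139, 178 and 158 CPM in ref5-1 and 129, 74.9 and 119 CPM in ref2-1. All ref2-1 libraries were below wild type, replicate 2 by the widest margin. It fell 1.38-fold in ref2-1 (-0.47 ± 0.16, adjusted p = 0.0358), and was not called without wild type replicate 1 (adjusted p = 0.0614), 2 (0.0764) or 3 (0.087) or ref2-1 replicate 2 (-0.27, adjusted p = 0.126), or in a fit to the 6 compared libraries (0.149). It was lower in ref2-1 than in ref5-1 (0.56 ± 0.16 as ref5-1 minus ref2-1, adjusted p = 0.0166), a call lost without ref2-1 replicate 2 (0.35, adjusted p = 0.0512) or ref5-1 replicate 2 (0.0734) and in a fit to the 6 compared libraries (0.0777). By its mean SCPL10 was lowest in ref2-1 med5, at 77.8, 86.4 and 84.5 CPM. There it was 1.79-fold below wild type (-0.84 ± 0.16, adjusted p = 0.00137), without overlap between libraries. Between ref2-1 med5 and ref2-1 it did not pass (-0.37 ± 0.16, adjusted p = 0.148), and passed without ref2-1 replicate 2 (-0.58, adjusted p = 0.0062). Between ref5-1 med5 and ref5-1 it did not pass (-0.47 ± 0.16, adjusted p = 0.0638), and passed in DESeq2 (0.0289) and without ref5-1 med5 replicate 1 (-0.58, adjusted p = 0.0359). Between ref2-1 med5 and med5 it did not pass either (-0.44 ± 0.16, adjusted p = 0.064), and passed in DESeq2 (0.0284) and in a fit to the 6 compared libraries (0.00591). Against wild type SCPL10 in ref5-1 med5 was at -0.38 ± 0.16 (adjusted p = 0.102), at -0.49 without replicate 1 (0.054), and passed in a fit to the 6 compared libraries (0.0216).

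SCPL9, which forms disinapoylglucose, varied within wild type from 13.4 and 17.8 to 32.7 CPM in replicate 3. It was at 25.5, 23.8 and 32.5 CPM in ref5-1 and 13.6, 7.51 and 11.98 CPM in ref5-1 med5, where it was 2.50-fold lower (-1.32 ± 0.34, adjusted p = 0.0255). These libraries did not overlap. Without ref5-1 med5 replicate 1 the value was -1.50 (adjusted p = 0.0278). The call was lost without ref5-1 replicate 1 (adjusted p = 0.0589) or 3 (0.0707) or ref5-1 med5 replicate 2 (0.109) or 3 (0.065). edgeR called SCPL9 in no other comparison with all 18 libraries. For ref5-1 med5 against wild type (-0.97 ± 0.34, adjusted p = 0.0636) it was called in DESeq2 (-0.95, adjusted p = 0.0329) and without wild type replicate 1 (-1.22, adjusted p = 0.0298), but not without ref5-1 med5 replicate 1 (-1.15, adjusted p = 0.0604).

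Some cell type markers were also lower in ref2-1 than in wild type, with 1 of 3 epidermal, 3 of 4 xylem and 2 of 4 mesophyll markers called lower and 0 called higher. Of all tested genes 11.2% were called lower there and 13.5% higher. The 3 epidermal markers, all detected in every genotype, summed to 505 to 565 CPM in wild type, 389 to 399.6 CPM in ref2-1 and 499 to 539.6 CPM in ref2-1 med5. The 4 xylem markers summed to 67.6 to 88.9, 37.6 to 52.1 and 54.7 to 70.1 CPM, and the 4 mesophyll markers to 40146 to 43867, 36021 to 36304 and 38337 to 41697 CPM in the same order. Against ref2-1, ref5-1 had 4 of 4 xylem, 3 of 4 mesophyll and 1 of 3 epidermal markers called higher. Between ref2-1 and ref2-1 med5, 1 epidermal, 1 mesophyll and 0 xylem markers were called higher in the latter (4.65% of all tested genes). From med5 to ref2-1 med5 2 xylem markers and 1 mesophyll marker were called lower.

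Of 3 root markers 1 was tested, BGLU23 (AT3G09260). With 1 gene tested, a shift in root tissue cannot be told apart from a shift in this gene alone. BGLU23 was called higher in ref5-1 and ref5-1 med5 against wild type (log2 fold changes 1.58 and 1.68). It was also called higher in ref5-1 med5 and ref2-1 med5 against med5 (2.36 and 1.08), and in ref5-1 against ref2-1 (1.74). UGT84A3 rose in the first 4 of these comparisons. It also rose in ref2-1 and in ref2-1 med5 against wild type, where BGLU23 was not called (-0.16 and 0.40). The 3 root markers summed to 95.8 to 155 CPM in wild type, 356 to 408 CPM in ref5-1, 88.3 to 144 CPM in ref2-1, 62.4 to 109 CPM in med5, 369 to 438 CPM in ref5-1 med5 and 157 to 185 CPM in ref2-1 med5, with 1 or 2 of them at 0 in every genotype. The 4 flower markers, all low, summed to 3.34 to 4.39 CPM in wild type, 1.61 to 3.34 CPM in ref5-1, 2.63 to 3.08 CPM in ref2-1, 5.16 to 9.81 CPM in med5, 2.43 to 3.75 CPM in ref5-1 med5 and 6.54 to 8.59 CPM in ref2-1 med5. From ref2-1 to ref2-1 med5, where UGT84A2 and ALDH2C4 fell, 3 of the 4 flower markers were called higher (median 1.52). From med5 to ref5-1 med5, where UGT84A3 and ALDH2C4 rose, 3 were called lower (median -1.57), and 2 without ref5-1 med5 replicate 1. Against wild type 2 were called higher in ref2-1 med5, 1 lower in ref5-1 and 1 lower in ref5-1 med5, and 1 was lower in ref2-1 med5 than in med5. The part of these shifts in the members' results was not tested. In whole rosettes fewer cells of a type and less RNA per cell cannot be told apart.

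**Figure D3:**
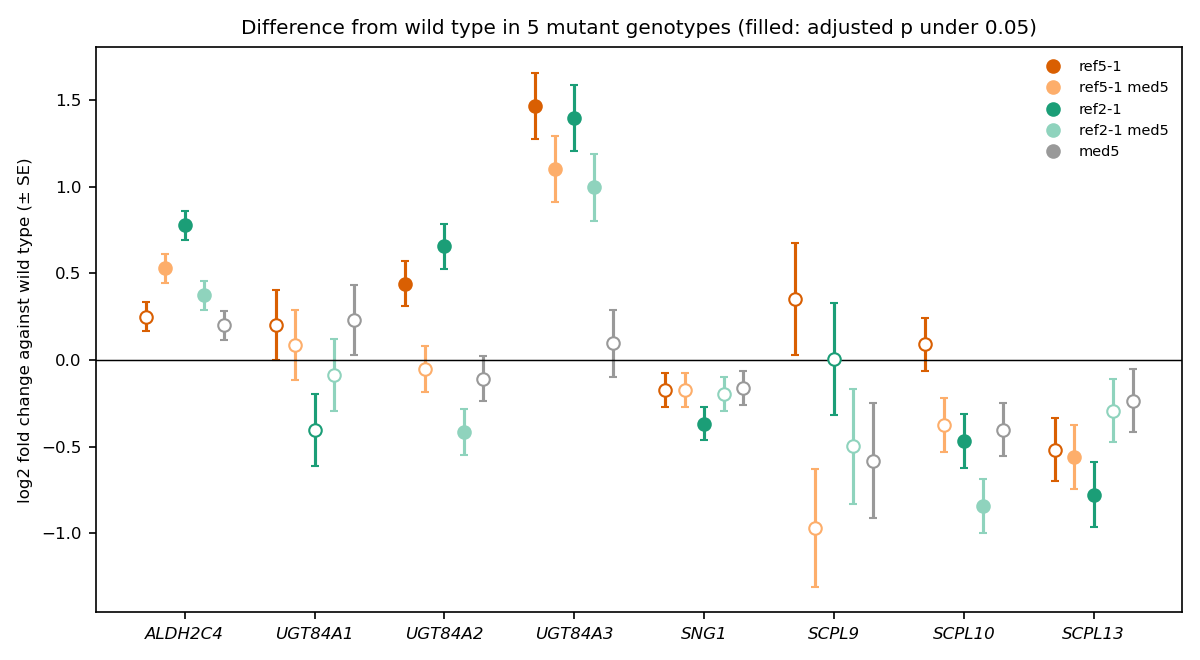
Log2 fold change against wild type (± SE) of the 8 tested members in 5 mutant genotypes, where filled points have an edgeR adjusted p under 0.05 over 19897 genes. UGT84A3 was called higher in the 4 genotypes with ref5-1 or ref2-1, and no member was called in med5.

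Counted over the 8 tested members, ref2-1 against wild type had 3 higher (ALDH2C4, UGT84A2 and UGT84A3) and 3 lower (SNG1, SCPL10 and SCPL13), where 13.5% and 11.2% of all tested genes were called higher and lower. The called members that rose act up to sinapoylglucose and the called members that fell are acyltransferase genes. The 2 members not called did not follow this split. The glucosyltransferase gene UGT84A1 was at -0.40 ± 0.21 (adjusted p = 0.173) and the acyltransferase gene SCPL9 at 0.005 ± 0.32 (adjusted p = 0.994). The median log2 fold change was -0.18, with 0.00 over all tested genes. In ref5-1 2 were higher (UGT84A2 and UGT84A3) and 0 lower, against 5.12% and 3.60% of all genes, with DESeq2 at 3 higher and 1 lower (10.3% of genes called in either direction). The UGT84A2 call in ref5-1 depended on single libraries, as given above. In ref5-1 med5 against wild type 2 were higher and 1 lower (19.1% of all genes called in either direction). DESeq2 called 4 there (20.2%), and edgeR without ref5-1 med5 replicate 1 called 2 (17.7%). In ref2-1 med5 2 were higher and 2 lower (20.7%). Comparing ref5-1 with ref2-1, 2 were higher in ref5-1 and 1 was lower (21.4%), and DESeq2 called 2 (21.8%).

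In med5 none of the 8 members was called against wild type by edgeR or by DESeq2, where 0.779% and 2.48% of all genes were called. At an unadjusted p under 0.05 there were 2, ALDH2C4 (0.20 ± 0.084, adjusted p = 0.319) and SCPL10 (-0.40 ± 0.16, adjusted p = 0.28). The 95% interval of the med5 effect on UGT84A2 was -0.39 to 0.17 and on UGT84A3 -0.32 to 0.51. In the mutant backgrounds members were called. From ref2-1 to ref2-1 med5 0 members rose and 2 fell (4.65% and 4.26% of all genes), and from ref5-1 to ref5-1 med5 1 rose and 2 fell (6.09% and 4.71%). In the latter DESeq2 called 4 (12.8%), and without ref5-1 med5 replicate 1 edgeR called 1 higher and 3 lower (6.88% and 4.15%). From med5 to ref5-1 med5 2 members rose and 0 fell (6.24% and 4.20%), and from med5 to ref2-1 med5 1 rose and 0 fell (8.75% and 7.52%), where DESeq2 called 2 (17.7%). In the first of these ALDH2C4 rose by 0.33 ± 0.084 (adjusted p = 0.0172), which held without ref5-1 med5 replicate 1 (0.36, adjusted p = 0.0204) and was lost without med5 replicate 1 (0.06) or 2 (0.0694) or ref5-1 med5 replicate 2 (0.0676) or 3 (0.053).

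**Figure D4:**
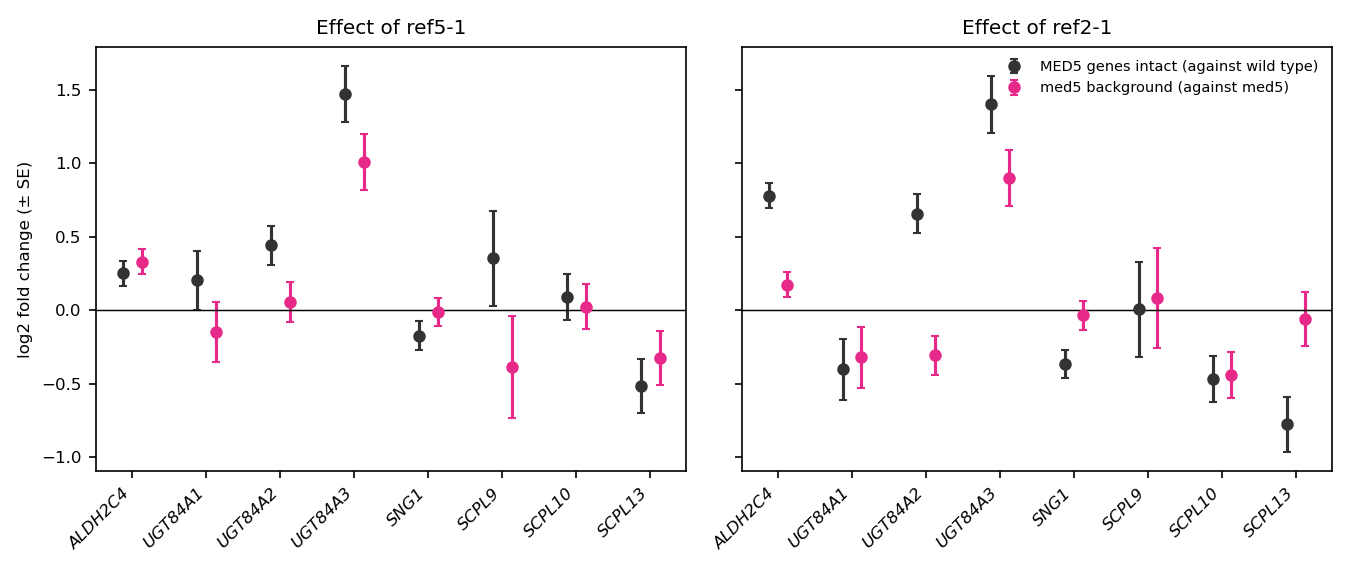
Log2 fold change (± SE) of each tested member between plants with and without ref5-1 (left) or ref2-1 (right), in plants with intact MED5 genes (black, against wild type) and in the med5 background (pink, against med5). The ref2-1 effects on ALDH2C4 and UGT84A2 differed between the backgrounds, from 0.78 to 0.17 and from 0.66 to -0.31.

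Whether an effect depended on MED5 was tested as an interaction. For ref2-1, 2 of the 8 members were called, both lower with med5, against 0.749% of all genes called in either direction and 0.292% lower. The ref2-1 effect on UGT84A2 was 0.66 with intact MED5 and -0.31 ± 0.13 in med5, an interaction of -0.97 ± 0.19 (adjusted p = 0.0222). That on ALDH2C4 was 0.78 and 0.17 ± 0.084, an interaction of -0.61 ± 0.12 (adjusted p = 0.0222). Both calls were lost without wild type replicate 1 or 2, med5 replicate 1 or 3, or ref2-1 med5 replicate 1 or 2. Adjusted p was then 0.0608 to 0.0922 for UGT84A2 and 0.0646 to 0.103 for ALDH2C4, and the interactions themselves were -0.97 to -0.84 and -0.59 to -0.54. In a fit to the 12 compared libraries the UGT84A2 interaction did not pass either (adjusted p = 0.0723). For SNG1 the interaction was 0.33 ± 0.14 (adjusted p = 0.246, 95% interval 0.04 to 0.62). For SCPL13 it was 0.72 ± 0.26 (adjusted p = 0.202, 95% interval 0.16 to 1.27). With these, 4 of the 8 members reached an unadjusted p under 0.05.

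For ref5-1 no member had a called interaction in edgeR or DESeq2, none reached an unadjusted p under 0.05 with all 18 libraries, and 0.0905% of all genes were called by edgeR and 0.628% by DESeq2. UGT84A2 had an interaction of -0.39 ± 0.19 (adjusted p = 0.585, 95% interval -0.78 to 0.01), and -0.41 (adjusted p = 0.542) without ref5-1 med5 replicate 1. ALDH2C4 had one of 0.08 ± 0.12 (95% interval -0.17 to 0.33), and 0.11 without that library. Without it UGT84A3 reached an unadjusted p of 0.0285, and its adjusted p is given above. The difference between the ref5-1 and ref2-1 interactions was not tested.

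Of 15 upstream genes from phenylalanine ammonia-lyase to the methyltransferase OMT1, 10 fell and 0 rose in ref2-1, 2 fell and 1 rose in ref5-1, and 6 rose in med5 (median log2 fold changes -0.33, 0.03 and 0.35). HCT (AT5G48930), the shikimate transferase, fell in ref2-1 (-0.79 ± 0.077) and ref5-1 (-0.36 ± 0.076), and CCR1 (AT1G15950), which leads to lignin, rose in ref5-1 (0.26 ± 0.078, adjusted p = 0.0428). 4CL1 (AT1G51680), a CoA ligase, fell in ref2-1 (-0.75 ± 0.095) and rose in med5 (0.87 ± 0.095), as did its relative 4CL2 (AT3G21240) in med5 (0.99 ± 0.11). FAH1 (AT4G36220), the ferulate 5-hydroxylase that commits intermediates to sinapate, did not pass in ref5-1, ref2-1 or med5 (0.23 ± 0.092, 0.03 ± 0.092 and 0.35 ± 0.092, adjusted p = 0.138, 0.867 and 0.0907).

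From ref2-1 to ref2-1 med5, 11 of these 15 upstream genes rose and 0 fell, in the comparison where UGT84A2 and ALDH2C4 fell. From ref5-1 to ref5-1 med5 11 rose and 0 fell as well, or 10 and 0 without ref5-1 med5 replicate 1. Genes of anthocyanin synthesis, which supply the acceptors of SCPL10, did the opposite: 8 of 9 fell from ref2-1 to ref2-1 med5 and 9 of 9 from ref5-1 to ref5-1 med5, with medians of -1.93 and -1.70. Without ref5-1 med5 replicate 1 the latter was 8 of 9, with a median of -1.92. Against wild type, 1 of the 9 was called higher in ref5-1, 1 in ref2-1 and 0 in med5. In both mutants it was BGLU10 (AT4G27830), a glucosyltransferase acting on anthocyanins, at 0.67 ± 0.089 in ref5-1 and 0.70 ± 0.089 in ref2-1. In ref2-1 med5 against wild type 1 was called higher and 7 lower (median -1.99), with 20.7% of all tested genes called in either direction. In ref5-1 med5 1 was higher and 3 lower (median -0.89, and -1.04 without its replicate 1), with 19.1% of genes called. From med5 to ref2-1 med5 1 rose and 4 fell (8.75% and 7.52% of all genes).

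Relatives in the acyltransferase and glucosyltransferase families were mostly low. Of 14 further SCPL genes 6 were tested, with 2 higher in ref5-1, 1 higher and 1 lower in ref2-1 and 0 in med5. SCPL12 (AT2G22920) rose in ref5-1 from 1.16 to 1.46 CPM to 2.40 to 5.39 CPM (1.56 ± 0.24, adjusted p = 0.000429), and SCPL7 (AT3G10450) rose by 0.61 ± 0.13. SCPL16 (AT3G12220) was at 0.114 to 0.199 CPM in wild type and 1.81 to 5.76 CPM in ref2-1 (adjusted p = 0.000582), and SCPL11 (AT2G22970), next to SCPL13, fell there by 0.30 ± 0.10 on the log2 scale. Of 6 further glucosyltransferase genes 3 were tested. UGT72E1 (AT3G50740), which glucosylates phenylpropanoid aldehydes, rose in med5 (1.01 ± 0.19, adjusted p = 0.0152), and UGT72E2 (AT5G66690), a coniferyl and sinapyl alcohol glucosyltransferase, was at 0 to 0.0379 CPM in wild type and rose in ref5-1 (0.883 to 1.81 CPM) and ref2-1 (0.197 to 1.73 CPM).

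Across the 18 libraries the members did not share a single pattern. Pearson r of log2 CPM was 0.75 for SNG1 with SCPL13, 0.56 for SCPL9 with SCPL10 and 0.52 for UGT84A2 with UGT84A3, while ALDH2C4 had -0.75 with SCPL13 and -0.70 with SNG1. The value largest in size was -0.78, for UGT84A3 with SCPL13. UGT84A2 had -0.70 with SCPL13 and 0.62 with SCPL9, and UGT84A3 had 0.66 with ALDH2C4 and -0.64 with SNG1. The points share genotypes and scaling, so these values are descriptions. Of 14702 other genes at a mean of 5 CPM or more, those most like UGT84A3 were the P450 genes CYP89A2 (AT1G64900, r = 0.959) and CYP89A5 (AT1G64950, r = 0.957) and the nicotianamine synthase NAS3 (AT1G09240, r = 0.916). ALDH2C4 was nearest to the receptor lectin kinase RLK (AT2G37710, r = 0.954), the bZIP factor TGA3 (AT1G22070, r = 0.945) and the receptor kinase BRL3 (AT3G13380, r = 0.94). UGT84A2 was nearest to AT2G15690 (r = 0.946), AT1G77030 (r = 0.921) and the early light-induced gene ELIP2 (AT4G14690, r = 0.915). SNG1 had no gene above r = 0.819, the fatty acid elongase gene KCS19 (AT5G04530), and SCPL10 was nearest to AT5G16350 (r = 0.934). Over the 6 genotype means in place of the libraries, 1 of the 3 genes stayed for ALDH2C4 and SCPL13 each and 0 for the other members.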

How the data were processed

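The authors deposited raw counts of reads per gene, 1 column per library. The submitters' processing notes name build TAIR10 and the tools HTSeq 0.6.1, TopHat2 2.1.0, Trimmomatic and edgeR. Neither the release of the gene annotation nor the strand option used in counting is given in those notes or the labels. The 5 summary lines (no feature 0.775% to 1.44% of a library, ambiguous 0.648% to 1.37%, several alignments 3.71% to 25.3%) were left out of library sizes and tests. Samples were grouped by the genotype and replicate number in their labels. Whether libraries of a genotype came from separate plantings is not given, so a p-value here reflects only how far these libraries scatter.

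Counts were scaled by TMM, filtered by filterByExpr (19897 genes kept) and fitted with a robust quasi-likelihood model in edgeR 4.0.16 (R 4.3.3), with 1 coefficient per genotype and all 18 libraries. There were 10 comparisons of pairs and 2 interactions. A gene was called at a Benjamini-Hochberg adjusted p under 0.05 over all tested genes. SEs were derived from the F statistic. DESeq2 1.42.0, another scaling (RLE), no filter, a fit to the compared libraries, a replicate block and leaving out each library were alternatives. Log2 CPM used a prior count of 2. Exon lengths, promoters and motif shares came from RefSeq TAIR10.1, where all 9 members were found by gene ID. Transcripts were compared in 50-base windows with those of the other members and of 20 relatives. The scripts were tested on simulated data.

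Members, lists and tests were chosen with earlier results of these data known, and the motifs, the windows and the overlapping genes after the values were seen. Named genes are the members, the targeted genes, up to 2 called genes per list with the smallest adjusted p in ref5-1, ref2-1 and med5 against wild type, and the 3 genes most correlated with each tested member (values for 5 members are given). FAH1 is given in addition, chosen for its place in the pathway.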

Additional observations from a re-analysis of the deposited data

Results flagged for a closer look

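The effect of ref2-1 on UGT84A2 differed between plants with intact MED5 genes and plants with the med5 alleles by -0.97 ± 0.19 on the log2 scale (edgeR interaction, adjusted p = 0.0222). UGT84A2 was higher in all 3 ref2-1 libraries than in any wild type library, and lower in all 3 ref2-1 med5 libraries than in any med5 library. The effect of ref2-1 on ALDH2C4 differed between the same backgrounds by -0.61 ± 0.12 (adjusted p = 0.0222). In the med5 background ALDH2C4 libraries of ref2-1 med5 overlapped those of med5.
Each of these 2 calls was lost when any 1 of 6 of the 12 libraries was left out.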

How the results depend on the processing

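RLE scaling and the replicate block changed no call of a member. With the replicate block the counts of called members stayed at 2 in ref5-1, 6 in ref2-1 and 0 in med5 against wild type. Deviations of same-numbered libraries had a median correlation of 0.036, with 13 of 45 pairs over 0.1, against -0.012 and 17 of 90 for libraries of other numbers. Since not every pair was over 0.1, the numbers were not taken as pairs, a strict rule that cannot exclude a batch shared by number. Of 18 libraries 7 were closest to a library of their own number, and the count due to chance was not worked out. Without the filter on low counts, ref5-1 against wild type had 1 called member in place of 2, and with DESeq2 4. Dropping the filter also ended the calls of SCPL13 in ref5-1 med5 against wild type, of ALDH2C4 in ref5-1 med5 against ref5-1 and of UGT84A1 in ref5-1 against ref2-1. DESeq2 called 4 members in place of 3 in ref5-1 med5 against wild type and against ref5-1. A fit to the compared libraries alone gave 1 in ref5-1 and 3 in ref2-1 against wild type, 3 for ref2-1 med5 against med5 (main count 1, with DESeq2 2), 1 for ref5-1 against ref2-1 (main count 3) and 1 for the ref2-1 interaction (main count 2). Leaving out 1 library gave 1 to 3 in ref5-1, 4 to 6 in ref2-1, 2 to 3 in ref5-1 med5 and 3 to 4 in ref2-1 med5 against wild type. It gave 0 to 4 for ref5-1 med5 against ref5-1, 2 to 3 for ref2-1 med5 against ref2-1, 1 to 2 for ref5-1 med5 against med5, 1 to 3 for ref5-1 against ref2-1 and 0 to 2 for the ref2-1 interaction. No log2 fold change of a called member reversed under any alternative. The fit to the compared libraries has fewer samples to estimate the spread from, and the cause of the other changes was not tested. UGT84A1 near 2 CPM and SNG2 near 0 were the members most limited by depth.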
